A study of Mus musculus with 2 samples.

Results

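The 10 genes of major histocompatibility complex (MHC) class I antigen presentation described here, B2m, Tap1, Tap2, Tapbp, Psmb8, Psmb9, Psmb10, H2-K1, H2-D1 and Nlrc5, were followed in dermal cells cultured from C57BL/6 newborns after β-catenin siRNA (1 array) and after control siRNA (1 array). They were chosen by function, as the genes of the class I molecule, of peptide transport into the endoplasmic reticulum and of the immunoproteasome, with the transactivator of these genes. Of the 10 genes, 8 had a probe set annotated to that gene alone, out of 19938 genes so measured, and 7 reached the level filter, against 10197 of all genes. H2-K1 and H2-D1 had none, because their probe sets were annotated to both genes at once. Both cultures came from dorsal skin and were transfected at 10 nM for 48 h after 24 h in culture, and each array was made from 300 ng of total RNA. The cells of both groups therefore carried siRNA, and the number of pups or cultures behind an array is not given in the sources used here.

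MHC class I molecules show peptides from inside the cell to CD8 T cells, and nearly all nucleated cells, fibroblasts included, carry them. The peptides are cut by the proteasome, carried into the endoplasmic reticulum by the transporter made of TAP1 and TAP2, and loaded with the help of tapasin, the product of Tapbp, onto a heavy chain (from H2-K1 or H2-D1) paired with β2-microglobulin, the product of B2m. Interferons raise the transcription of most of these genes and lead cells to build immunoproteasomes, in which the catalytic subunits encoded by Psmb8, Psmb9 and Psmb10 take the places of those encoded by Psmb5, Psmb6 and Psmb7. NLRC5 acts at class I promoters through the SXY module, whose parts include an element related to the cyclic AMP response element and a CCAAT box. Interferon regulatory factors bind interferon-stimulated response elements.

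The promoter windows of B2m, of Tap1 and of 2 comparison genes are shown because these elements can be read in them beside the values that follow. The comparison genes are H2-Q4, the class I heavy chain gene with the largest difference among those reaching the level filter, and Ifit1, an interferon-induced antiviral gene. Each window runs from 250 bases before to 50 bases after the RefSeq start on GRCm38.p6, 5′ to 3′ on the gene's strand. Capitals mark matches on either strand to GAAANNGAA (interferon-stimulated response element), to its shifted form GAANNGAAA, to TTCNNNGAA (gamma-activated site), to CCAAT and to TGACG (cyclic AMP response element core), and matches of the first pair may overlap each other. The windows are chr2:122147437-122147736 (+) for B2m, chr17:34187306-34187605 (+) for Tap1, chr17:35379367-35379666 (+) for H2-Q4 and chr19:34640639-34640938 (+) for Ifit1.
B2m: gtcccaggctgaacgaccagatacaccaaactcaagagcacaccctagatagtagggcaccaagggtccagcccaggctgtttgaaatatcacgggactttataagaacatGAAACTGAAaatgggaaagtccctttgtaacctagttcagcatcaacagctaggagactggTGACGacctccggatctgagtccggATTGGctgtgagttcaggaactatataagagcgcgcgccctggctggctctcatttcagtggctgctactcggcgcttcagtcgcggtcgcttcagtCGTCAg
Tap1: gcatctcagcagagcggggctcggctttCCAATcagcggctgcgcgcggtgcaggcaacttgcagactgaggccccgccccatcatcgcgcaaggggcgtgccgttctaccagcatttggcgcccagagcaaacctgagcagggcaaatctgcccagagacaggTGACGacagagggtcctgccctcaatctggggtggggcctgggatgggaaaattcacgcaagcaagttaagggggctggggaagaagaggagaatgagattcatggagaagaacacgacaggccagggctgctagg
H2-Q4: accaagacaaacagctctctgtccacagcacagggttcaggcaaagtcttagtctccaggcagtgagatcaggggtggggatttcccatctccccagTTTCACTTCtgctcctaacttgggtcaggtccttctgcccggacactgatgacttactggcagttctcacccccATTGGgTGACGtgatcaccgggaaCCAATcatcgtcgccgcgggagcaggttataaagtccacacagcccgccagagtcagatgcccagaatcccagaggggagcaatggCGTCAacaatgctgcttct
Ifit1: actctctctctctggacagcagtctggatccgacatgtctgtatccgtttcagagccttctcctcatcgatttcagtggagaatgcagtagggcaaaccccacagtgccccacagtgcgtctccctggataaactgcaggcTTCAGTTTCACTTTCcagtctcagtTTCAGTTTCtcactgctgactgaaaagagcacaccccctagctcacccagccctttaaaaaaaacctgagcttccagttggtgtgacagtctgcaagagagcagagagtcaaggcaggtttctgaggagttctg

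A window was found in the RefSeq table for 8 of the 10 genes, all but Tap2 and Nlrc5. GAAANNGAA was present in 1 of these 8 genes, B2m, where it starts 139 bases before the gene start, while 8.56% of all 32851 windows hold it. The shifted form, searched after the windows had been read, was present in H2-K1 and H2-D1 and in 7.52% of all windows. TTCNNNGAA was present in Psmb8 alone, as TTCCCAGAA, and in 8.30% of all windows. CCAAT was present in 6 of the 8 genes (37.4% of all windows) and TGACG in 5 of the 8 (20.8% of all windows), and B2m, H2-K1, H2-D1, Tap1 and Psmb9 held both. Tap1 and Psmb9 lie head to head, so their windows share 275 bases and their matches are the same letters. Ifit1 held 3 matches to GAAANNGAA, starting 109, 103 and 84 bases before its start, and no CCAAT or TGACG. Of further windows searched, those of Cxcl10 and Erap1 held 1 and 2 matches to GAAANNGAA. That of Psmb6 held the shifted form, and those of Irf7 and Psmb5 held neither form. Whether a match goes with a difference between the arrays was not tested. A match is a description of the letters, and binding was not measured.

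The target transcript Ctnnb1, which encodes β-catenin, had a log2 value of 9.34 on the β-catenin siRNA array and 10.48 on the control siRNA array, or 45.2% of the control signal. With 1 array per group no difference below could be set against the spread between cultures, and no test was made. As a guide to scale, the robust standard deviation (SD) of the difference over all 10197 genes was 0.22 and their median difference was -0.02 (log2). The labels say only dermal cells, and 13 of 13 measured dermal fibroblast markers reached the level filter, with differences from -0.76 to 1.29 and a median of 0.07. Of these 13, 4 were at least 1.5-fold higher after β-catenin siRNA and 1 at least 1.5-fold lower. Lum, a collagen-binding proteoglycan gene, was 2.44-fold higher, Dpt, an extracellular matrix gene, 2.19-fold higher and Dcn, another proteoglycan gene, 1.79-fold higher, while Fap, a fibroblast surface protease gene, had 4.49 on the β-catenin siRNA array and 5.24 on the control siRNA array. Of the macrophage and dendritic cell markers 1 of 18 measured reached it, Lyz2, which differed by 0.63 and passed through the β-catenin siRNA array alone. Values of the 18 ran from 2.26 to 5.38 (median 3.60) on the β-catenin siRNA array and from 2.31 to 4.75 (median 3.75) on the control siRNA array. None of the 13 measured markers of T, B and NK cells reached the filter, with values up to 4.46 after β-catenin siRNA and up to 4.56 after control siRNA. Among the 14 keratinocyte markers, 5 reached the filter, all of them higher after β-catenin siRNA with a median difference of 0.62. Krt5 and Krt14, the keratins of basal cells, were 2.02-fold and 1.54-fold higher and Cdh1, the epithelial cadherin gene, 1.69-fold higher. Epcam, an epithelial adhesion gene, differed by 0.50 and passed the filter through the β-catenin siRNA array alone. The median level over all 14 was 4.97 on the β-catenin siRNA array and 4.68 on the control siRNA array. Of 11 endothelial markers, 2 reached the filter. Kdr, a receptor of vascular endothelial growth factor, had 4.82 on the β-catenin siRNA array and 5.34 on the control siRNA array. Its difference was -0.51, and it passed through the control siRNA array alone. Egfl7, an endothelial secreted factor, differed by -0.16. Several of these fibroblast and keratinocyte marker differences were larger than any among the class I presentation genes, and their part in the differences below was not tested. In such bulk RNA a change in the share of a cell type and a change in RNA per cell cannot be told apart.

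Most of the class I presentation genes were slightly higher after β-catenin siRNA, and none reached 1.5-fold. Of the 7 genes reaching the level filter, 5 were higher and 2 lower by any amount, where 45.8% of all 10197 genes were higher. Of the lower pair, Nlrc5 at -0.01, turned to 0.01 when all differences were centred on their median. Their median difference was 0.24, against -0.02 over all genes, and the differences ran from -0.09 for Psmb10 to 0.47 for Tapbp. None of the 7 was at least 1.5-fold higher (2.76% of all genes), at least 2-fold higher (0.912% of all genes) or at least 1.5-fold lower (1.84% of all genes). All 7 lay above the filter of 5.13 on both arrays, so none entered through 1 array alone, and Psmb8 lay below it on both.

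**Figure D1:**
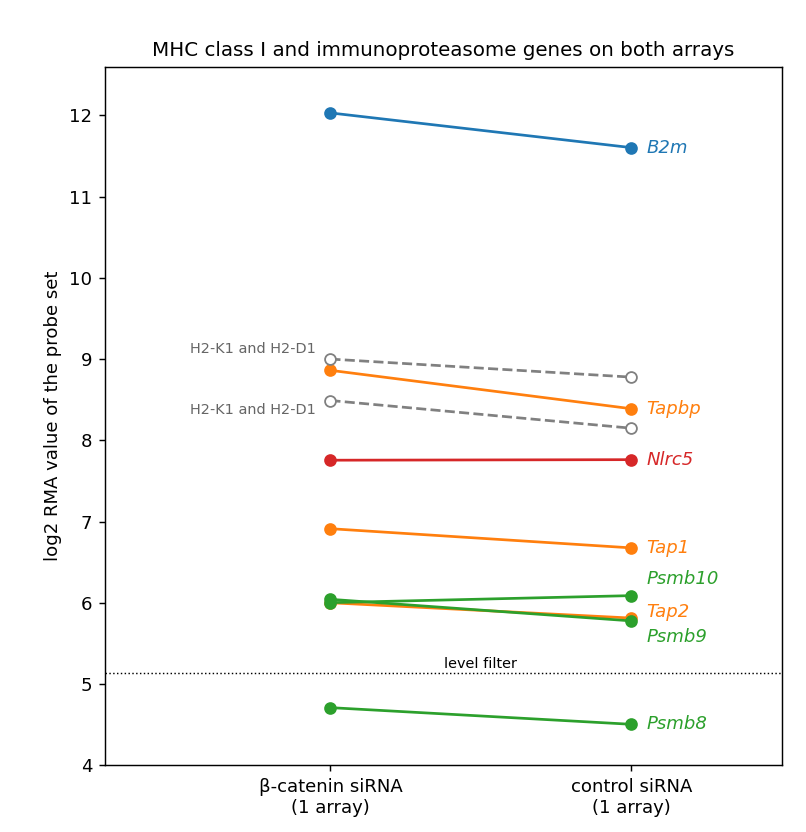
Log2 values of the 8 measured class I presentation genes, each by its probe set, on the β-catenin siRNA array (left) and the control siRNA array (right), with 1 point per array. Dashed grey lines are the 2 probe sets annotated to both H2-K1 and H2-D1. The lines of B2m and Tapbp tilt most, by 0.43 and 0.47, that of Nlrc5 is level, and that of Psmb10 tilts the other way. Heights of different probe sets are not comparable.

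B2m and Tapbp had the largest differences. B2m, the light chain without which class I heavy chains do not reach the cell surface, had a log2 value of 12.03 on the β-catenin siRNA array and 11.60 on the control siRNA array. The difference of 0.43, or 1.34-fold, compares with a robust SD of 0.16 among the 500 genes nearest in level, and 4.85% of all genes that reached the filter had a difference at least as high. Tapbp, which encodes the tapasin that bridges the transporter and the heavy chain, had 8.86 on the β-catenin siRNA array and 8.39 on the control siRNA array. Its difference of 0.47, or 1.39-fold, was matched or passed by 4.07% of all genes, and the robust SD near its level was 0.17. A pair of brighter probe sets annotated to both Rps3a1, a ribosomal protein gene, and Tapbp differed by 0.01 and 0.04, with 10.92 and 10.65 on the β-catenin siRNA array and 10.91 and 10.61 on the control siRNA array, and cannot be assigned to Tapbp.

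The heavy chain genes H2-K1 and H2-D1, the classical class I genes of this strain, could not be read one by one. A probe set annotated to H2-D1, H2-K1 and 1 further locus had 8.49 on the β-catenin siRNA array and 8.15 on the control siRNA array, and a second of the same 3 annotations had 9.001 on the β-catenin siRNA array and 8.78 on the control siRNA array. These signals were 1.27-fold and 1.17-fold higher after β-catenin siRNA and can be assigned to neither gene. They lay between the differences of Tap2 and B2m. With both probe sets added, the median over 9 values was again 0.24.

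Both transporter genes had smaller positive differences. Tap1 had 6.91 on the β-catenin siRNA array and 6.68 on the control siRNA array, a difference of 0.24 with a robust SD of 0.22 near its level. Tap2 had 6.00 on the β-catenin siRNA array and 5.81 on the control siRNA array, a difference of 0.19 with a robust SD of 0.26 near its level. Each difference was thus about as large as the spread among genes of like level or smaller. Differences at least as high were found for 13.4% of all genes in the case of Tap1 and 17.8% in the case of Tap2.

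Tap1 and Tap2 stand in a row with Psmb9 and Psmb8 in the class II region of chromosome 17, in the order Psmb9, Tap1, Psmb8, Tap2 in RefSeq, with no other protein-coding gene between them. The 4 genes had differences of 0.27, 0.24, 0.21 and 0.19 in that order. On the far side of Tap2, H2-Ob, a class II gene of B cells, had the same value of 4.04 on both arrays. Beyond it, H2-Ab1 and H2-Aa differed by 0.20 and 0.06, under the filter on both arrays. On the far side of Psmb9, H2-DMb1 and H2-DMb2 had no probe set of their own. H2-DMa had 3.86 on the β-catenin siRNA array and 3.60 on the control siRNA array, a difference of 0.27, like that of Psmb9. Both values were under the filter, as were those of Psmb8. Brd2, a chromatin reader, differed by -0.03. The 4 genes of the row are thus not set apart from all their neighbours by their differences.

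Of the immunoproteasome genes, 2 were slightly higher and 1 was not. Psmb9 had 6.04 on the β-catenin siRNA array and 5.78 on the control siRNA array, a difference of 0.27 with a robust SD of 0.26 near its level. Psmb8 had 4.71 on the β-catenin siRNA array and 4.51 on the control siRNA array, a difference of 0.21 from a dim signal on both. The robust SD near a level was taken over genes passing the filter, so none can be given for Psmb8. Psmb10, on chromosome 8, had 6.00 on the β-catenin siRNA array and 6.09 on the control siRNA array, a difference of -0.09, and 62.5% of all genes had a difference at least as high.

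The constitutive catalytic subunits that these 3 replace were all lower after β-catenin siRNA. Psmb5, replaced by the product of Psmb8, had 8.42 on the β-catenin siRNA array and 8.83 on the control siRNA array, a difference of -0.41. Psmb6, replaced by that of Psmb9, had 9.11 on the β-catenin siRNA array and 9.41 on the control siRNA array, a difference of -0.29. Psmb7, replaced by that of Psmb10, had 9.74 on the β-catenin siRNA array and 9.90 on the control siRNA array, a difference of -0.17. None of the 3 reached 1.5-fold. The difference of the immunoproteasome subunit exceeded that of its counterpart by 0.61 for Psmb8 over Psmb5, by 0.56 for Psmb9 over Psmb6 and by 0.08 for Psmb10 over Psmb7, with a mean of 0.42. The mean difference was 0.13 over the 3 immunoproteasome genes and -0.29 over their counterparts. The largest of the 3 terms rests on Psmb8, which lay under the level filter on both arrays, and over the 2 pairs whose genes reached it the mean was 0.32.

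**Figure D2:**
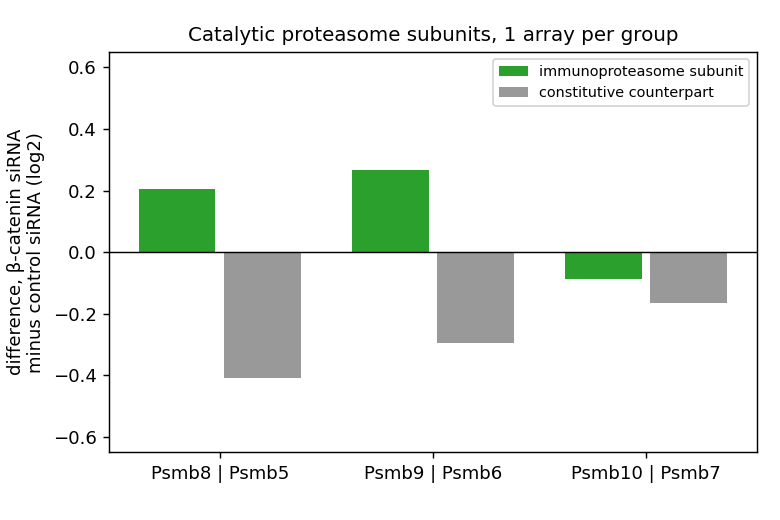
Difference in log2 value, β-catenin siRNA array minus control siRNA array, of each immunoproteasome subunit gene (green, left of each pair) and its constitutive counterpart (grey), with no error bars because there was 1 array per group. Psmb8 and Psmb9 lie above 0 at 0.21 and 0.27, Psmb10 lies at -0.09, and the 3 counterparts lie between -0.41 and -0.17.

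The rest of the 20S proteasome core also lay mostly below 0. Of 11 further core subunit genes that reached the level filter, 9 were lower and 2 higher, with a median of -0.11, and none differed by 1.5-fold. Psmb4, a structural β subunit, had the largest difference, -0.36 (8.71 on the β-catenin siRNA array and 9.07 on the control siRNA array). Psmb1, Psmb3 and Psmb2 followed at -0.27, -0.26 and -0.15. The activators and assembly factors did not share a direction, with 4 of 8 higher, 3 lower and a median of 0.02. Psme2, a subunit of the interferon-inducible PA28 activator, differed by 0.17 (8.06 on the β-catenin siRNA array and 7.89 on the control siRNA array). Psmf1, a proteasome inhibitor, differed by -0.15, Psme4, another activator, by 0.09 and Pomp, the assembly chaperone, by -0.08.

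Nlrc5, the transactivator of class I genes, differed by -0.01 at its brightest probe set, with 7.76 on the β-catenin siRNA array and 7.76 on the control siRNA array. That gene has 19 probe sets, and the other 18 were much dimmer, from 2.40 to 5.29 (median 4.56) on the β-catenin siRNA array and from 2.82 to 5.59 (median 4.27) on the control siRNA array. Of the 19, 8 were higher, 8 lower and 3 equal on both arrays, so the median difference was 0 and the range -0.41 to 0.86. The 2 probe sets at least 1.5-fold higher lay below the level filter on both arrays. Only 5 of the 19 reached the filter. On the mean of its probe sets Nlrc5 fell under the filter and its difference was 0.05.

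**Figure D3:**
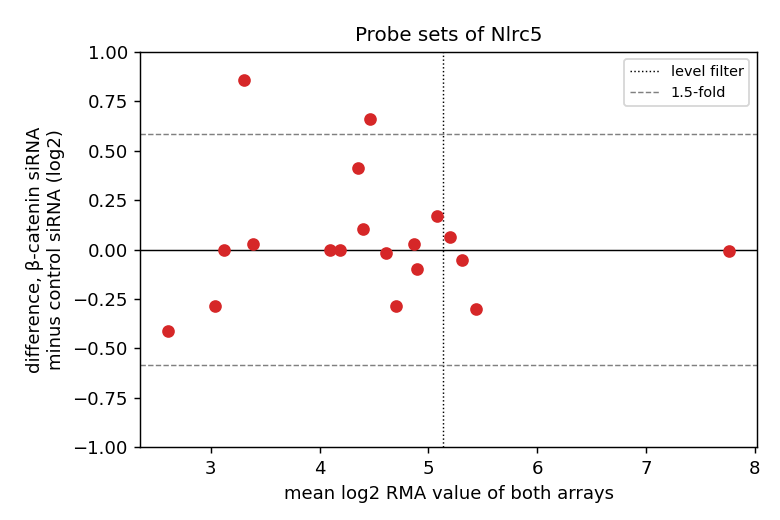
Difference (log2, β-catenin siRNA array minus control siRNA array) of each of the 19 Nlrc5 probe sets against its mean log2 value on both arrays. The brightest lies alone near 7.76 with a difference of -0.01, and the spread is widest among the dim ones.

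Further genes of the pathway and of the endoplasmic reticulum showed no common direction. A list of 13 genes held loading complex partners and endoplasmic reticulum chaperones, but also translocon and signal peptidase subunits and Ugcg. Of these 13, 5 were higher and 8 lower, none by 1.5-fold, with a median of -0.10. Among those that take part in loading, Calr, Canx, Pdia3 and Tapbpl differed by -0.16, 0.08, 0.21 and -0.11. Within that list the largest differences were those of Sec61b, a translocon subunit, at -0.33, Ugcg, a glucosylceramide synthase, at 0.32, Spcs1, of the signal peptidase, at -0.30 and Spcs2, of the same complex, at 0.26. Among 10 peptidase genes 4 were higher and 6 lower, with a median of -0.05. Erap1, which trims peptides inside the endoplasmic reticulum to the length that class I binds, stood apart from them with 6.84 on the β-catenin siRNA array and 6.28 on the control siRNA array, a difference of 0.56 that lay just under 1.5-fold. The cytosolic peptidases Dpp3, Thop1 and Nrd1 (listed as Nrdc) differed by -0.26, -0.21 and -0.11.

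Larger differences were found in class I heavy chain genes outside the classical pair. Of 26 listed, 16 had a probe set of their own and 2 reached the level filter, both at least 1.5-fold higher. H2-Q4, a non-classical (class Ib) gene of the Q region, had 6.77 on the β-catenin siRNA array and 5.61 on the control siRNA array, or 2.24-fold higher. H2-T10, a T-region gene, had 5.36 on the β-catenin siRNA array and 4.57 on the control siRNA array, the control value lying under the filter, or 1.72-fold higher. The other 14 were below the filter on both arrays, and over all 16 the median was -0.03. Genes of this family are close copies, so signal of one can reach probes of another. Among class I-like genes, Raet1d, a ligand of the receptor NKG2D, was 1.58-fold higher, whereas Hfe, which controls iron uptake, differed by 0.34, Procr, the protein C receptor, by -0.24 and Cd1d1, which presents lipids, by 0.22. The median of the 5 that reached the filter was 0.22. Hfe reached it on the β-catenin siRNA array alone, and over the 4 genes above it on both arrays the median was 0.0982.

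**Figure D4:**
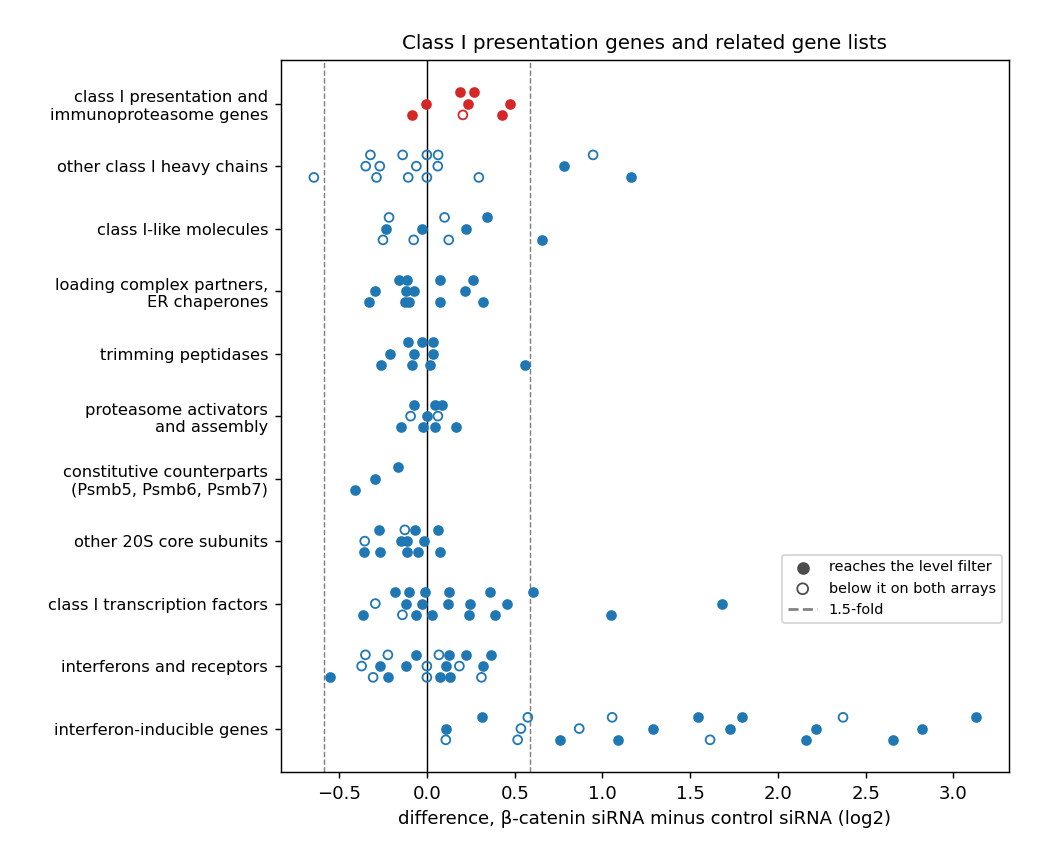
Difference (log2, β-catenin siRNA array minus control siRNA array) of each measured gene, with the class I presentation and immunoproteasome genes in red in the top row and related lists in blue below. Filled points reach the level filter, open points lie under it on both arrays, and vertical offsets within a row only separate points. The red points lie within the dashed 1.5-fold lines, as do all points of the proteasome rows, while the interferon-inducible genes extend to 3.13.

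Most interferon-inducible genes that serve as markers had far larger differences than the class I genes. Of 13 that reached the level filter, 11 were at least 1.5-fold higher (2.76% of all genes) and 10 at least 2-fold higher (0.912% of all genes). The median of the 13 was 1.73, against 0.24 for the 7 class I presentation genes. Ifit2 and Ifi35, above the filter on both arrays, differed by only 0.11 and 0.31. Ifit1 had 7.05 on the β-catenin siRNA array and 3.92 on the control siRNA array. Cxcl10, a chemokine gene, had 8.38 on the β-catenin siRNA array and 5.56 on the control siRNA array, and Ifit3 and Rtp4 differed by 2.66 and 2.22. For 7 of the 13 genes, Ifit1, Ifit3 and Rtp4 among them, the control value lay under the filter, so that they passed through the β-catenin siRNA array alone. When both values had to reach it, 4 of 6 such genes were at least 1.5-fold higher and their median was 1.32. This list repeats a pattern already known in these data and is given for scale only.

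The transcription factors that act on class I genes differed in both directions. Of 18 that reached the level filter, 11 had the higher value on the β-catenin siRNA array, with 3 past 1.5-fold, and no gene was lower by that amount. Irf7, which drives type I interferon genes, had 7.67 on the β-catenin siRNA array and 5.99 on the control siRNA array. Stat2 had 8.08 on the β-catenin siRNA array and 7.03 on the control siRNA array, and Irf9, its partner in the complex that binds interferon-stimulated response elements, had 7.49 on the β-catenin siRNA array and 6.88 on the control siRNA array. Relb, of the NF-κB family, differed by 0.46. Irf1, which mediates much of the induction of class I genes by interferon-γ, differed by 0.24. Rfx5, a subunit of the factor that binds the X box, differed by 0.25, and both were named after their values were seen. On the mean of its 2 probe sets Irf1 differed by 0.42. That mean was 5.01 on the β-catenin siRNA array and 4.59 on the control siRNA array, both under the filter. Likewise named after the fact, Irf3, which acts with Irf7 after viral infection, differed by -0.03, and Irf2, an Irf1 antagonist, by 0.36 with its control value under the filter. Irf8, a factor of myeloid cells, was under it on both arrays. The 7 lower genes were Rela at -0.36, Nfyb at -0.18, Rfxank at -0.12, Nfyc at -0.10, Stat3 at -0.06, Irf3 and Creb1 at -0.01. Rela had 7.36 on the β-catenin siRNA array and 7.72 on the control siRNA array.

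Interferon transcripts themselves were mostly dim. Of 21 measured genes for interferons, their receptors and signalling partners, 12 reached the level filter, 7 of them higher and 5 lower, with a median of 0.09 and none past 1.5-fold. Jak2, a kinase of the interferon-γ receptor, differed by -0.55, Ifngr1, a chain of that receptor, by 0.37, Ifnar2, a chain of the type I receptor, by 0.32 and Ifnl2, an interferon-λ gene, by -0.27. Ifng had 2.67 on the β-catenin siRNA array and 3.02 on the control siRNA array, and Ifnb1 had 3.11 on the β-catenin siRNA array and 2.80 on the control siRNA array, all under the filter.

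Class II presentation was at or near the dim end on both arrays. Of 10 measured genes 9 were below the level filter, among them Cd74, the invariant chain, with 2.77 on the β-catenin siRNA array and 3.09 on the control siRNA array, and H2-Ab1, with 3.70 on the β-catenin siRNA array and 3.49 on the control siRNA array. The class II transactivator Ciita, of the factor list, was also below it, with 3.18 on the β-catenin siRNA array and 3.48 on the control siRNA array. The gene that reached the filter was Ifi30, a lysosomal thiol reductase, with a difference of 0.21. Of the surface molecules that meet immune cells, Vcam1, an adhesion molecule, was 1.61-fold higher and Cd47, which signals to phagocytes, 1.53-fold higher. Cd47 has 2 probe sets, and on their mean it was 1.45-fold higher. Icam1, another adhesion molecule, differed by 0.49 and the death receptor gene Fas by -0.24, among 5 genes of that list that reached the filter.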

How the data were processed

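RNA of 2 cultures was hybridised to Affymetrix whole-transcript arrays, 1 per group. The deposited values are on the log2 scale, judged from their range of 0.485 to 13.5, and were made by robust multi-array average (RMA), per the submitters' processing notes. Its software, version and filters are not stated in those notes, nor is a genome build. RMA makes array distributions alike, so differences are relative to the other probe sets, and it shrinks those of dim ones. The number of arrays limits the precision.

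Of 28944 probe sets, 21789 had 1 gene symbol, 1621 several and 5534 none in the platform annotation. Symbols were updated through gene identifiers in RefSeq for GRCm38.p6 (21698 matched). The brightest probe set stood for each gene. The control value was subtracted from the β-catenin siRNA value. Genes whose higher value reached the median of all gene means, 5.13, passed the level filter, and folds of 1.5 and 2 were counted. No p-value was computed with 1 array per group. Named were all members, the target, the constitutive counterparts and the 4 largest absolute differences per list among genes passing the filter. A few genes outside this rule were added for their role, or because they were lower or did not reach 1.5-fold in a list with larger upward differences. Members and the 18 other lists were chosen with earlier results of these data known. Tools were Python 3.11.15, pandas 2.3.3, numpy 2.4.6, statsmodels 0.14.6 (lowess) and matplotlib 3.10.9. Alternatives were median and lowess centring, the mean of probe sets, a stricter filter, none, both values reaching it and, after the data were seen, joint H2-K1 and H2-D1 probe sets, the other Nlrc5 probe sets and subunit pairs reaching the filter. The counting was tested on simulated data.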

Additional observations from a re-analysis of the deposited data

Results flagged for a closer look

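The 7 probe sets annotated to several class I symbols were left out of the gene comparison because a signal shared by genes names none of them. Of these, 5 reached the level filter, and these 5 had a higher value on the β-catenin siRNA array than on the control siRNA array, where 45.8% of all genes did. The 2 under the filter differed by 0.39 (H2-Q6 and H2-Q8) and by -0.0473 (H2-T3 and H2-T18). The pair annotated to both H2-K1 and H2-D1 had differences of 0.34 and 0.22 (log2). Of the other 3, a probe set of H2-Q1 and H2-Bl had 5.62 on the β-catenin siRNA array and 5.48 on the control siRNA array, a difference of 0.14. A probe set of H2-T23 and a T-region pseudogene had 6.70 on the β-catenin siRNA array and 6.34 on the control siRNA array, a difference of 0.36. A probe set of H2-T9, H2-T22 and H2-T10 had 8.17 on the β-catenin siRNA array and 8.09 on the control siRNA array, a difference of 0.0767, where the H2-T10 probe set of its own differed by 0.78. None of the 7 reached 1.5-fold, and no value can be assigned to 1 gene.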

How the results depend on the processing

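The count of class I presentation genes at least 1.5-fold or 2-fold higher was 0 under every alternative run. Their median stayed between 0.22 and 0.25, except that it was 0.43 over the 3 genes left by the stricter filter (the 75th percentile of gene means, 7.12). The mean excess of immunoproteasome over constitutive subunits was 0.38 after lowess centring and, chosen after seeing the data, 0.32 over the 2 pairs reaching the filter. The other alternatives could not move it. Nlrc5 was above 0 at 0.01 with median centring, 0.02 with lowess centring and 0.05 with the mean of probe sets and was 0 by the median of its other probe sets. The other 7 genes have 1 probe set each, so only centring could move their differences. Psmb10, the nearest to 0 of these, ran from -0.09 to -0.07. All 7 kept their sign, which shifts of this size could scarcely change. Centring on the median moved all differences by 0.02. Of 210 values for counts and medians under the alternatives, 189 moved by less than the SD between probe sets of a gene (0.157 over 594 genes) or, for counts, by at most 1.5 times. Many of the 189 could hardly move, since centring shifts little and averaging leaves genes with 1 probe set as they are. A filter likewise leaves a list lying wholly above it unchanged. The other values changed mainly through the number of genes left. With the stricter filter the medians were -0.0280 for class I-like molecules (1 gene, 0 at least 1.5-fold higher), 0.65 for surface molecules, 2.16 for interferon-inducible genes (5 of 5 at least 1.5-fold higher) and 0.82 for keratinocyte markers. Without a filter they were -0.0300 for other class I heavy chains, 0.0364 for class I-like molecules, 0.0294 for class II genes, 1.29 for interferon-inducible genes, -0.10 for macrophage and dendritic cell markers, 0.14 for keratinocyte markers and 0 for endothelial markers (1 at least 1.5-fold higher). With both values above the filter they were 1.16 for other class I heavy chains (1 gene), 1.32 for interferon-inducible genes (4 at least 1.5-fold higher) and -0.16 for endothelial markers. With the mean of probe sets 1 surface molecule was at least 1.5-fold higher, since Cd47 was then 1.45-fold higher. No paired analysis was possible because each group has 1 array, and leaving out an array was not possible. The deposited values hold no detection calls, so no signal can be called above background, and 6.50% of probe sets had equal values on both arrays.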
